A study of Homo sapiens with 6 samples.

Results

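PRLR, the prolactin receptor, and 8 other receptor genes of the class I cytokine receptor family were followed in a pancreatic cancer cell line in which PRLR itself was the target of a short hairpin RNA (shRNA). The 9 genes are PRLR, GHR, EPOR, IL6ST, LIFR, OSMR, IL4R, IL13RA1 and IL11RA. Their members on the array are all probe sets annotated with 1 of these gene symbols and no other, which gave 35 of the 41091 probe sets with a single symbol. For tests at the gene level the probe set with the highest overall mean stood for its gene, which makes 9 of 19775 genes. The receptors were read on Affymetrix U133 Plus 2.0 arrays in SW-1990 cells, a long-established human line of pancreatic adenocarcinoma that came from a spleen metastasis. One group (sh-Ctrl) carried a lentiviral scrambled shRNA and the other (sh-PRLR) a lentiviral shRNA against PRLR, both groups having been kept in puromycin at 1 µg/ml for over 7 days. Each group had 3 arrays, named biological replicates in the labels. Where nothing says that replicates came from separate cultures, p-values measure the spread between these samples only, which may be technical. The shRNA sequence, the transcripts it reaches and the number of clones behind each group are not given in the sources used here.

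Class I cytokine receptors are single-pass membrane proteins with a shared extracellular fold that carries, in most of them, a WSXWS motif near the membrane. They have no kinase of their own. Ligand binding brings receptor chains together and activates JAK kinases bound to their tails, which phosphorylate the receptor and STAT factors, and SOCS proteins made in response switch the signal off. PRLR, GHR and EPOR work as pairs of identical chains. IL6ST (gp130) is the signalling chain shared by the receptors for interleukin-6, interleukin-11, leukaemia inhibitory factor and oncostatin M. IL4R pairs with IL13RA1 in epithelial cells, among others.

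The receptor genes are partly neighbours in the genome. In the RefSeq promoter table (GRCh38.p14), which held all 9 genes with 19 annotated starts, 5 of them (PRLR, GHR, IL6ST, LIFR and OSMR) lay on chromosome 5. In the order of protein-coding genes, LIFR and OSMR followed each other directly, IL6ST lay next to the class I receptor gene IL31RA, and IL4R lay next to IL21R, another receptor of the same class. The 250 bases before each start were searched for TTCNNNGAA, the spaced palindrome bound by most STAT factors, and for TTCNNNNGAA, the wider spacing preferred by STAT6. Both motifs read the same on both strands. The first was in 3 of the 19 windows, 1 of GHR and 2 of LIFR (TTCAAAGAA in GHR, TTCATCGAA and TTCCTTGAA in LIFR), against 6.57% of all 35116 windows of this length. The second was in 0 of the 19, against 5.38% of all. The windows of PRLR, the targeted gene, and of IL4R, whose single probe set was lower in every sh-PRLR array, are given 5′ to 3′ in lower case, since neither motif was found in them; a match would be in capitals. The PRLR window at chr5:35230488-35230737 (minus strand) lies before the start farthest upstream, that at chr5:35118123-35118372 (minus strand) before a start inside the gene, and that of IL4R at chr16:27313724-27313973 (plus strand).
PRLR upstream start: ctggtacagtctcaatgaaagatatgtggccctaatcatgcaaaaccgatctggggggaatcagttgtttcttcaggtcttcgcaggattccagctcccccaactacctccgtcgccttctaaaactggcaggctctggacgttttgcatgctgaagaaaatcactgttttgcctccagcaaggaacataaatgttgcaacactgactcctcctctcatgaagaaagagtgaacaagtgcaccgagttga
PRLR inner start: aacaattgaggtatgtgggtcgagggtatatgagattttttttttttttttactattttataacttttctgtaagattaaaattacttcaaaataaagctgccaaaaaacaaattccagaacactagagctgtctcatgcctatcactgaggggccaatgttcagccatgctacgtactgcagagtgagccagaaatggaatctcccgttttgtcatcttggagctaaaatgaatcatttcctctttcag
IL4R: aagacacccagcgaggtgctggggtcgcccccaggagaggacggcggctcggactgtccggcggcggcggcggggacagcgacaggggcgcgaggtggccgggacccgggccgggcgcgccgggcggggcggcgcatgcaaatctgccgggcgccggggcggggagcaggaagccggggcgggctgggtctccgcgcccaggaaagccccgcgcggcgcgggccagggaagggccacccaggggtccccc

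Values below are log2 signals as deposited. A difference or log2 change is sh-PRLR minus sh-Ctrl, ± gives the SD of 3 arrays, and precision is limited by the number of arrays. In bulk RNA, fewer cells that express a receptor and less RNA per cell cannot be told apart. Across the 9887 genes above the median gene level of 7.23, Pearson correlations between arrays ran from 0.984 to 0.994. Of the 8 epithelial and ductal markers, 7 lay above that level, among them EPCAM, KRT8, KRT18 and KRT19, while MUC1 did not, and CDH1 (E-cadherin) was lower in sh-PRLR by a small amount that passed (log2 change -0.17, limma adjusted p = 0.0284). Markers of leukocytes (0 of 5 measured), fibroblasts (1 of 7), endothelium (1 of 5) and acinar or islet cells (0 of 4) mostly lay below it, and 0 of them passed the test. Summed over the 5 leukocyte markers, the log2 signal was 8.07 to 8.19 in sh-Ctrl and 7.93 to 8.39 in sh-PRLR. The leukocyte-defining gene PTPRC read 3.42 ± 1.79 in sh-Ctrl and 4.30 ± 1.34 in sh-PRLR. The part of other cells in the results was not tested.

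The targeted receptor gave a weak signal, and no probe set of it passed the test. PRLR was read by 7 probe sets, whose means over all arrays lay between 3.82 and 5.58, all under the median gene level. The mean of each of the 7 was lower in sh-PRLR, by 0.18 to 1.82, and in 3 of them every sh-PRLR array lay below every sh-Ctrl array, as it did in 11.6% of all probe sets. Genes with 7 probe sets numbered 171, and in 3.51% of these all 7 were lower and in 2.92% all 7 higher.

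Probe set 231981_at read 6.38, 6.27 and 5.77 in the sh-Ctrl arrays and 4.70, 4.83 and 5.0 in the sh-PRLR arrays. The groups did not overlap, and the mean in sh-PRLR was 0.406 of that in sh-Ctrl on the linear scale (log2 change -1.30, 95% interval -2.16 to -0.44, limma adjusted p = 0.0948). Probe set 216638_s_at read 4.42, 5.12 and 4.98 against 3.56, 1.75 and 3.75, again without overlap. Its log2 change was -1.82, with a 95% interval of -3.58 to -0.06 (limma adjusted p = 0.274). The suffix _s_at marks probe sets that match several transcripts, as those of splice forms or relatives do. Probe set 206346_at, annotated to a RefSeq mRNA of PRLR, read 5.50, 4.86 and 4.71 against 3.93, 4.31 and 4.48, the third set without overlap (log2 change -0.78, limma adjusted p = 0.566).

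The other 4 probe sets of PRLR overlapped between groups. For 227629_at, which has the highest mean and so stands for the gene, the arrays read 5.75, 5.36 and 5.97 against 5.63, 5.71 and 5.05 (log2 change -0.23, 95% interval -1.10 to 0.65 in the fit of 1 probe set per gene, limma adjusted p = 0.811 over all genes). Without sh-PRLR replicate 3 its difference was -0.024, and without sh-Ctrl replicate 2 it was -0.39. Sets 243755_at, 210476_s_at and 211917_s_at spread by 0.62 to 1.40 (SD) within a group, and their differences were -0.50, -1.13 and -0.18 (limma adjusted p = 0.797, 0.632 and 0.950). In 210476_s_at the arrays ran from 3.06 to 5.84 in sh-Ctrl and from 1.95 to 4.57 in sh-PRLR. Between the brightest set and the mean of the other 6, the gap was wider in sh-PRLR by 0.72 on average, but the groups overlapped (exact two-sided permutation p = 0.2, 0.7 after adjustment over the 7 genes with several probe sets).

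Averaged over its 7 probe sets, PRLR read 5.23, 5.03 and 4.79 in the sh-Ctrl arrays and 3.94, 4.38 and 4.19 in sh-PRLR. All 3 sh-PRLR arrays were lower, with a log2 change of -0.85, or 0.556 on the linear scale. The exact two-sided permutation p was 0.1, the smallest that 3 against 3 arrays allow, and in limma over the probe set means of all genes the 95% interval was -1.81 to 0.12 (adjusted p = 0.388, where 3.08% of genes passed). Groups did not overlap toward lower values in 11.3% of all genes taken this way. Among these were 3 other receptors: IL11RA, with a larger change than PRLR (-0.98), IL4R (-0.32) and IL13RA1 (-0.14). For IL11RA the sh-PRLR arrays read 3.97, 5.82 and 5.72, so that 1 array weighed heavily in its change. EPOR separated toward higher values (0.37). On a scale with 32 added to each linear signal, which compresses dim values, the log2 change of the PRLR mean was -0.35.

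**Figure D1:**
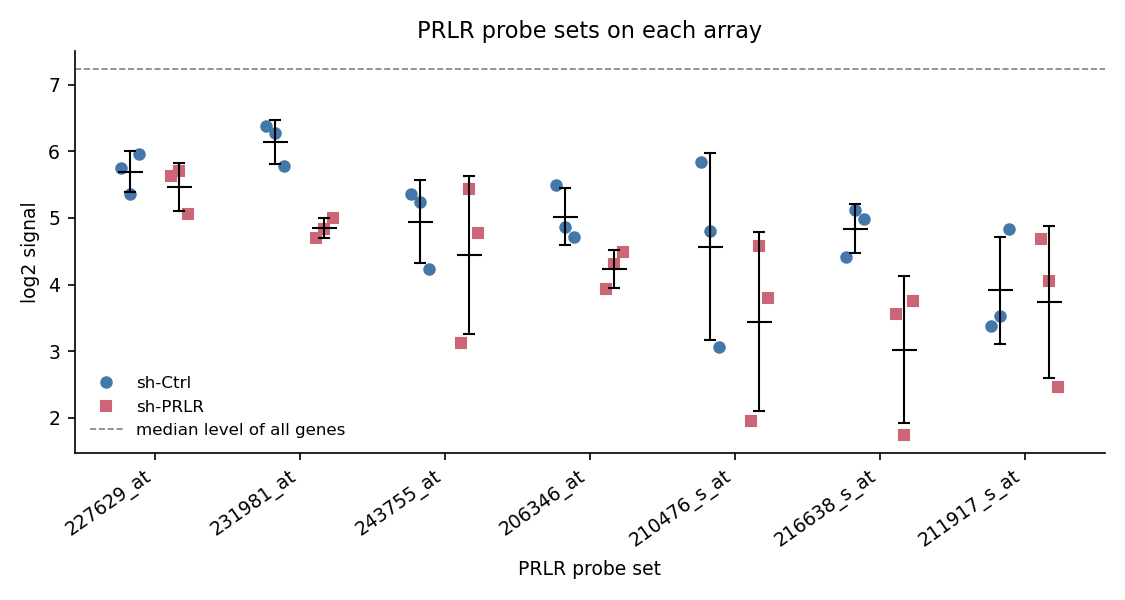
Log2 signal of the 7 PRLR probe sets (x axis) on each of the 3 sh-Ctrl arrays (circles) and 3 sh-PRLR arrays (squares), with the mean and SD of each group in black and the median level of all genes (7.23) as a dashed line. All values lie under that line, and the groups separate in 231981_at, 206346_at and 216638_s_at.

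GHR, the growth hormone receptor, works like PRLR as a pair of identical chains, and its signal lay near the bottom of the array. Its single probe set, 205498_at, read 1.73, 1.47 and 0.56 in the sh-Ctrl arrays and 1.27, 2.43 and 2.72 in sh-PRLR, at percentile 2.89 of all probe sets. The groups overlapped, and the interval of the difference was wide in the fit of 1 probe set per gene (0.89, 95% interval -1.05 to 2.83, limma adjusted p = 0.651). It was 0.54 without sh-Ctrl replicate 3 and 0.091 with a pseudocount of 32.

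EPOR, the erythropoietin receptor, was read by 5 probe sets whose means ranged from 3.19 to 8.74, so that the choice of probe set decided how the gene appeared. The brightest, 396_f_at, read 8.97, 8.74 and 8.25 against 8.29, 9.56 and 8.63, with the widest group spread of the bright members (SD 0.66 in sh-PRLR). The suffix _f_at denotes probes shared by a family of sequences, so how much of this signal is EPOR is uncertain. Its change was 0.17 (95% interval -0.46 to 0.81, limma adjusted p = 0.801 over all genes). Set 37986_at read 7.67, 7.63 and 8.09 against 7.83, 8.41 and 8.44, a difference of 0.43 with overlapping groups (limma adjusted p = 0.293). Set 209963_s_at read 5.52, 4.69 and 5.81 against 5.95, 6.43 and 6.15, where the groups did not overlap (0.84, 95% interval -0.02 to 1.70, limma adjusted p = 0.311). The remaining sets, 209962_at and 216999_at, differed by -0.11 and 0.53 and overlapped. A further probe set annotated to both EPOR and its neighbour RGL3 was left out by the rule.

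IL6ST, the shared signalling chain gp130, was read by a bright probe set with the narrowest interval of the 9 genes. Its probe set 212195_at read 12.06, 12.14 and 12.14 in the sh-Ctrl arrays and 12.30, 12.30 and 12.18 in sh-PRLR. Every sh-PRLR array was higher, by 1.11-fold on average (log2 change 0.15, SE 0.05, 95% interval 0.03 to 0.27, limma adjusted p = 0.141 over all genes). The next probe set, 212196_at, read 10.51, 10.44 and 10.19 against 10.10, 10.41 and 10.42, with a difference of the opposite sign (-0.07) and overlap. Sets 204863_s_at, 211000_s_at and 204864_s_at were higher in sh-PRLR by 0.11 to 0.27, all with overlap. The dimmest sets, 234967_at and 234474_x_at, scattered by up to 2.34 (SD in sh-PRLR), the latter through 1 array at 5.10 beside 1.30 and 0.84. Of the 7 sets, 5 were higher, 2 were lower and 0 passed the test.

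The chains that pair with gp130 for leukaemia inhibitory factor and oncostatin M were dim. LIFR had 5 probe sets with means of 1.89 to 5.02, of which 2 were lower and 3 higher, and none separated the groups. Its brightest set, 229185_at, read 5.12, 4.77 and 5.44 against 5.53, 4.49 and 4.77 (-0.18, 95% interval -1.33 to 0.96, limma adjusted p = 0.891 over all genes). Sets 227771_at, 225575_at and 225571_at differed by 0.78, 0.027 and 1.22. Set 205876_at, annotated to a RefSeq mRNA, ran from -0.16 to 4.42 within sh-Ctrl and from -0.95 to 3.22 within sh-PRLR, which shows how little a single value says at this level. OSMR had 3 probe sets with means of 2.69 to 5.54, all higher in sh-PRLR and all overlapping. Set 226621_at read 5.96, 5.98 and 4.06 against 5.01, 5.62 and 6.64 (0.42, 95% interval -0.93 to 1.78, limma adjusted p = 0.771 over all genes). This difference turned to -0.22 without sh-Ctrl replicate 3 and to -0.017 without sh-PRLR replicate 3. Sets 205729_at and 1554008_at differed by 0.014 and 0.87.

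IL11RA, which binds interleukin-11 and hands it to gp130, was lower in both of its probe sets without passing. Set 1552646_at read 6.31, 7.03 and 6.16 against 5.97, 6.63 and 5.92 (-0.32, 95% interval -1.05 to 0.41, limma adjusted p = 0.662 over all genes). Without sh-Ctrl replicate 2 this difference was -0.059, and without sh-PRLR replicate 2 it was -0.55. Set 204773_at read 5.44, 5.90 and 6.06 against 1.96, 5.01 and 5.52, with a difference of -1.63 (limma adjusted p = 0.369). In sh-PRLR the array of replicate 1 stood far below the others of its group, and without it the difference was -0.53.

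IL4R binds interleukin-4 and, with IL13RA1, forms the receptor of epithelial cells for interleukin-4 and interleukin-13. Its single probe set, 203233_at, read 8.59, 8.67 and 8.63 in the sh-Ctrl arrays and 8.36, 8.20 and 8.39 in sh-PRLR. All 3 sh-PRLR arrays were lower than all 3 sh-Ctrl arrays, with a level 0.803 of that in sh-Ctrl (log2 change -0.32, SE 0.11, 95% interval -0.57 to -0.07, limma adjusted p = 0.133 over all genes). The change stayed between -0.35 and -0.26 under the 14 other settings, none of which brought it past the threshold (limma adjusted p from 0.0811 to 0.310).

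IL13RA1, the partner chain, had 4 bright probe sets that did not move alike. Set 201887_at, with the highest mean, read 9.96, 10.09 and 10.10 against 10.15, 10.19 and 10.08, a difference of 0.09 (95% interval -0.08 to 0.25, limma adjusted p = 0.591 over all genes). The other 3 were lower in sh-PRLR. For 210904_s_at the arrays read 10.15, 9.97 and 10.07 against 9.97, 9.97 and 9.75, where the nearest values of the groups tie at 2 decimals (-0.17, limma adjusted p = 0.393). Set 201888_s_at read 9.44, 9.72 and 9.63 against 9.55, 8.97 and 9.25 (-0.34, 95% interval -0.65 to -0.03, limma adjusted p = 0.241), and 211612_s_at differed by -0.15 with overlap. Within each array, 201887_at exceeded the mean of the other 3 by 0.07, 0.23 and 0.15 in the sh-Ctrl arrays and by 0.35, 0.59 and 0.44 in sh-PRLR. This gap was wider in every sh-PRLR array, with an exact two-sided permutation p = 0.1, the smallest possible, and 0.7 after adjustment over the 7 genes compared in this way.

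**Figure D2:**
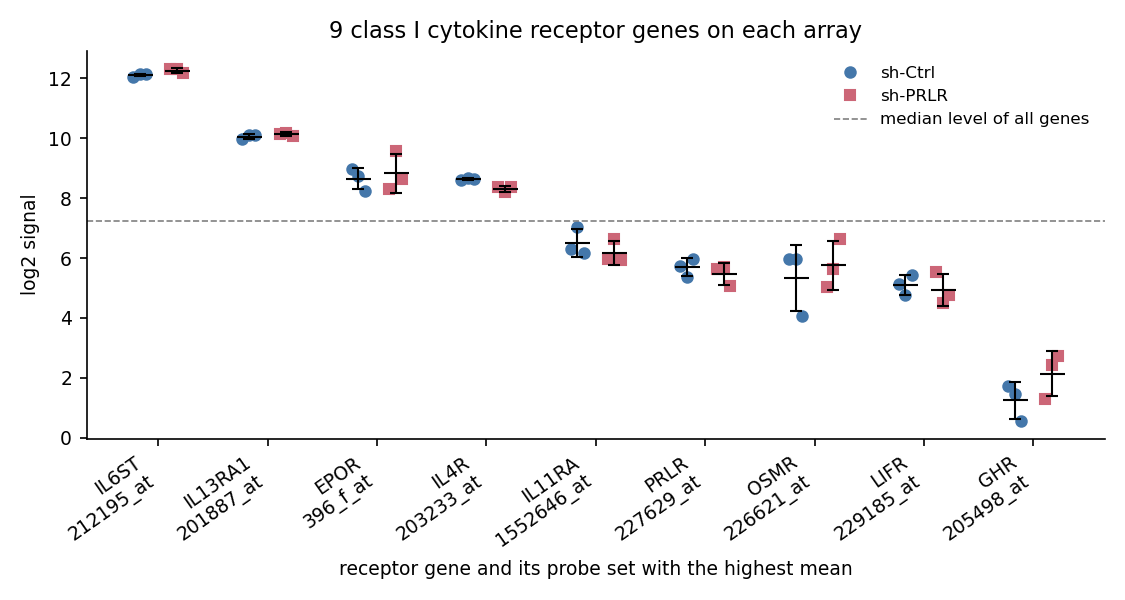
Log2 signal on each array of the probe set with the highest mean for each of the 9 receptor genes (x axis, ordered by that mean), with circles for sh-Ctrl, squares for sh-PRLR, mean and SD in black and the median level of all genes (7.23) dashed. IL6ST, IL13RA1, EPOR and IL4R lie above that level, and the groups separate for IL6ST and IL4R; signals of different probe sets are not amounts that can be compared.

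Over the whole set, 0 of the 35 probe sets and 0 of the 9 genes passed limma with an adjusted p under 0.05, where 4.67% of all probe sets and 7.66% of all genes did. Before adjustment 6 of the 35 probe sets (17.1%) had a p under 0.05, against 17.0% of all probe sets. These were 231981_at and 216638_s_at of PRLR, 37986_at of EPOR, 212195_at of IL6ST, 203233_at of IL4R and 201888_s_at of IL13RA1. With limma's default settings, in which the variance does not follow the level, 0 of the 35 passed as well, 4 (11.4%) had an unadjusted p under 0.05 against 12.7% of all probe sets, and 0 of all 41091 probe sets passed. Groups did not overlap in 7 of the 35, or 20.0%, against 22.6% of all probe sets. Outside PRLR this held for 4 of 28, and 11 of those 28 were lower and 17 higher. At the gene level the groups did not overlap for IL6ST and IL4R, 2 of 9, against 25.8% of all genes, and the same 2 genes had an unadjusted p under 0.05, against 20.3% of all. With default settings 1 gene, IL4R, had such a p, against 16.2%, and 0 passed after adjustment, against 0.0202% of all genes. Over probe sets and with 1 probe set per gene, the shares of the receptors thus lay near those of the array as a whole. With probe sets averaged per gene, groups did not overlap for PRLR, IL4R, IL13RA1 and IL11RA (lower) and EPOR (higher). On this measure 21.8% of all genes had no overlap, and none of the 9 receptors passed limma (adjusted p from 0.157 to 0.982).

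Brighter receptor probe sets mostly spread less within groups, and why they did was not tested. Exceptions were 396_f_at of EPOR, at a mean of 8.74 with an SD of 0.53, and 231981_at of PRLR, at 5.49 with 0.25. Of the 9 genes 4 lay above the median gene level (IL6ST, IL13RA1, EPOR and IL4R) and 5 below it. The 11 probe sets above that level had a median SD within groups of 0.18, whereas the other 24 had 0.93. The same held for the array, where the 10273 dimmest probe sets had a median SD of 1.17 and the 10273 brightest 0.085. Of these, 0.243% and 14.0% passed the test. Receptor probe sets numbered 12 among the dimmest and 6 among the brightest.

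**Figure D3:**
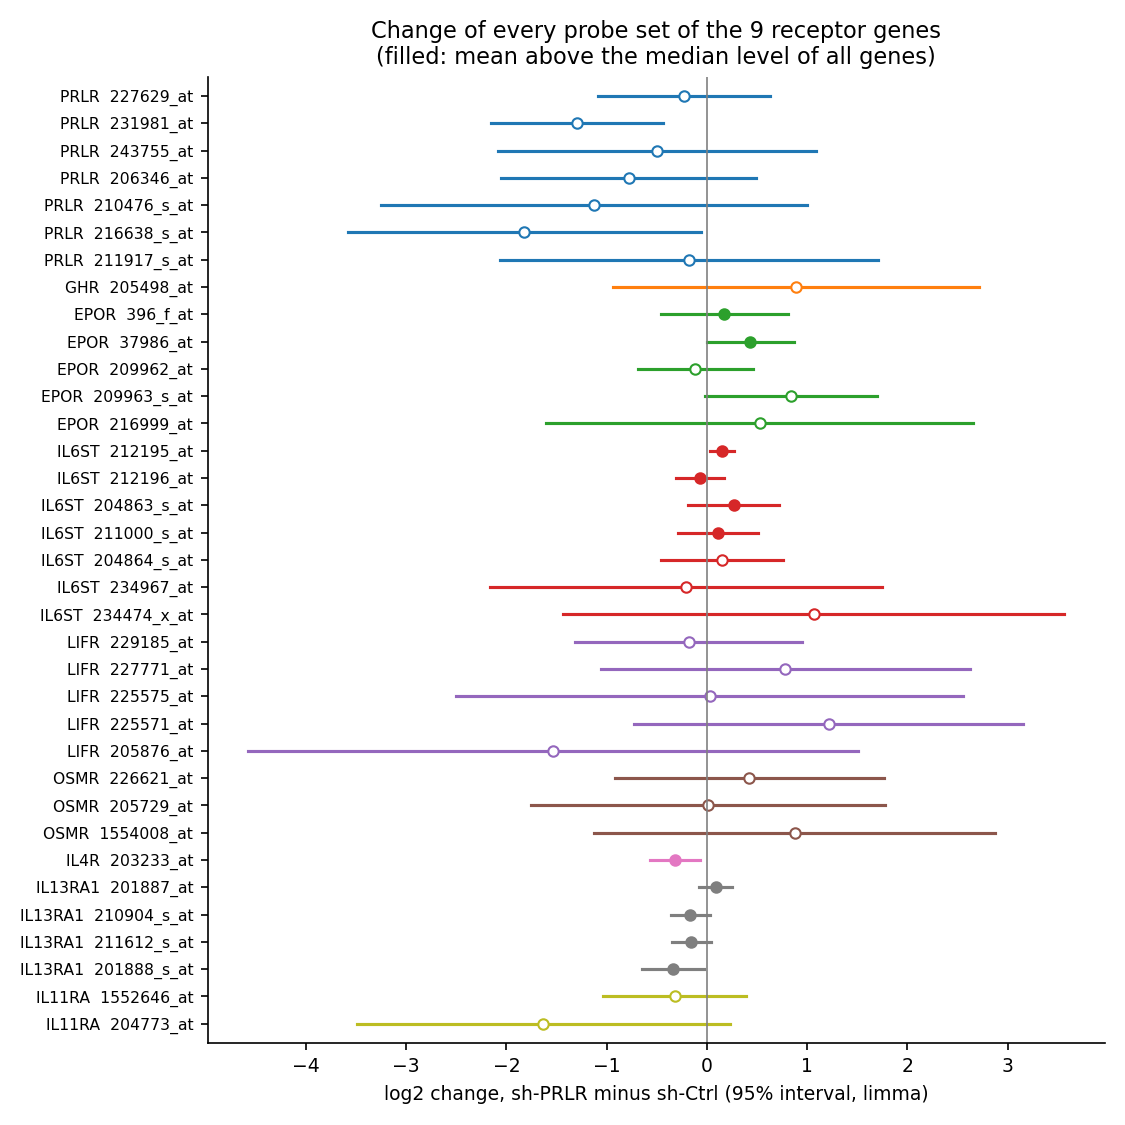
Log2 change (sh-PRLR minus sh-Ctrl, points) and its 95% interval from limma (lines) for each of the 35 probe sets of the 9 receptor genes, coloured by gene and filled where the mean lies above the median level of all genes. Intervals of filled sets are mostly shorter, with 396_f_at (-0.46 to 0.81) among the exceptions, and all 7 PRLR sets lie left of 0 with wide intervals.

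The rest of the receptor family and its ligands were mostly dim and had no member past the threshold. Of 24 other class I receptor genes 22 were measured, 3 above the median gene level, and 0 passed limma's test, 3 (13.6%) having an unadjusted p under 0.05 with either variance setting, against 20.3% of all genes with trend and robust and 16.2% with default settings. Their median change was 0.20, against -0.0013 over all genes, with 13 higher, 9 lower and changes from -1.37 to 1.58. CRLF3, an orphan receptor-like factor, read 11.24, 11.42 and 11.39 against 11.52, 11.62 and 11.60 (0.23, limma adjusted p = 0.0510). IL6R, the binding chain for interleukin-6, read 8.40, 8.30 and 8.64 against 8.81, 8.90 and 8.73 (0.37, limma adjusted p = 0.105), and with its probe sets averaged the difference was 1.35 (limma adjusted p = 0.0623). Both were higher in every sh-PRLR array. CRLF3 passed when arrays were quantile normalised (limma adjusted p = 0.0470), where 7.81% of all genes did, against 7.66% in the main fit. It also passed with the dimmest 40% of genes left out (limma adjusted p = 0.0257), where 17.1% of the genes kept did. CSF3R, the receptor for granulocyte colony-stimulating factor, passed only without sh-Ctrl replicate 1 among the settings tried (log2 change 2.10, limma adjusted p = 0.0400) and is named after its values were seen. The neighbours of the receptors, IL31RA and IL21R, named after their values were seen, were at 3.13 and 3.67 and overlapped between groups.

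Of 24 ligand genes of this family 21 were measured, 3 above the median gene level, and 0 passed, while 2 (9.52%) had an unadjusted p under 0.05 and 3 (14.3%) with default settings, against 20.3% and 16.2% of all genes. LIF, the leukaemia inhibitory factor, read 10.45, 10.48 and 10.55 against 10.63, 10.82 and 10.73, higher in every sh-PRLR array (0.23, 95% interval 0.08 to 0.39, limma adjusted p = 0.0786). It passed without the dimmest 40% of genes (limma adjusted p = 0.0422), where 17.1% of the genes kept did, and without sh-PRLR replicate 1 (0.0435). IL23A, a subunit of interleukin-23, overlapped between groups (0.27, and 1.12 with averaged probe sets, limma adjusted p = 0.493 and 0.223). PRL, which encodes prolactin and was named after its values were seen, read 6.16, 5.16 and 4.52 against 3.73, 5.27 and 5.12, below the median gene level and with overlap (limma adjusted p = 0.687).

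Downstream of the receptors, 2 of 20 measured genes of the JAK, STAT and adaptor list rose and 0 fell. Over all genes 3.34% rose and 4.32% fell. Of the 20, 18 lay above the median gene level, where more of the array passed. SHC1, an adaptor that links receptors to RAS, read 11.67, 11.73 and 11.60 against 12.14, 12.30 and 12.20 (0.55, 95% interval 0.41 to 0.68, limma adjusted p = 0.000611). IRS1, a docking protein of insulin and interleukin-4 signalling, rose from 11.93 ± 0.04 to 12.18 ± 0.08 (0.25, limma adjusted p = 0.0231). The kinase and STAT genes themselves did not pass: JAK2, the kinase bound by PRLR, GHR and EPOR, was at 8.43 ± 0.20 and 8.20 ± 0.18, and STAT5B, a main effector of prolactin, at 8.92 ± 0.10 and 9.19 ± 0.07, higher in every sh-PRLR array (limma adjusted p = 0.133). The median change of the list was 0.0068. With default settings none of the 20 passed, SHC1 coming closest (limma adjusted p = 0.0869), and with arrays centred on their medians SHC1 alone did. IRS1 did not pass without any one of the 3 sh-Ctrl arrays or without sh-PRLR replicate 3 (limma adjusted p from 0.0503 to 0.107), and with averaged probe sets its change was 0.15 (limma adjusted p = 0.335).

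Of 22 feedback and target genes 4 rose and 0 fell, against 3.34% and 4.32% of all genes, with a median change of 0.05. Of the 22, 19 lay above the median gene level, where more of the array passed. PIM3 and PIM1, survival kinases induced by STAT factors, rose from 11.27 ± 0.10 to 11.80 ± 0.21 and from 9.53 ± 0.10 to 9.99 ± 0.13 (0.53 and 0.46, limma adjusted p = 0.00873 and 0.0130). CCND1, cyclin D1, rose by 0.25 and SOCS7, a member of the SOCS family, by 0.21 (limma adjusted p = 0.0354 and 0.0431). The classical feedback genes of prolactin did not pass: CISH was at 7.38 ± 0.18 and 7.21 ± 0.45 and SOCS2 at 10.63 ± 0.09 and 10.43 ± 0.10 (limma adjusted p = 0.760 and 0.166). With default settings 0 of the 22 passed, with median centring 1, with the probe sets of each gene averaged 2, and with the replicate number as a block 2. Without any one of sh-Ctrl replicates 1, 2 or 3 or of sh-PRLR replicate 3 the count was 1, PIM1 without sh-Ctrl replicate 2 and PIM3 in the other cases. SOCS7 was at -0.0053 when its probe sets were averaged. CCND1 and PIM1 are known targets of several growth pathways besides this one.

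Class II cytokine receptors, the sister family without the WSXWS motif, had 2 of 12 members that rose and 0 that fell, against 3.34% and 4.32% of all genes, with a median change of 0.14, and 8 of the 12 lay above the median gene level. F3, tissue factor, rose from 10.07 ± 0.08 to 10.59 ± 0.12 and IFNLR1, the interferon lambda receptor, from 9.0 ± 0.15 to 9.50 ± 0.06 (0.51 and 0.50, limma adjusted p = 0.00394 and 0.0140). Whether the class I and class II families differed was not tested. With median centring or the mean of probe sets 1 of the 12 passed, with default settings 0, and without sh-Ctrl replicate 1 or sh-Ctrl replicate 2 only F3. The change of IFNLR1 was 0.28 with averaged probe sets (limma adjusted p = 0.674).

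**Figure D4:**
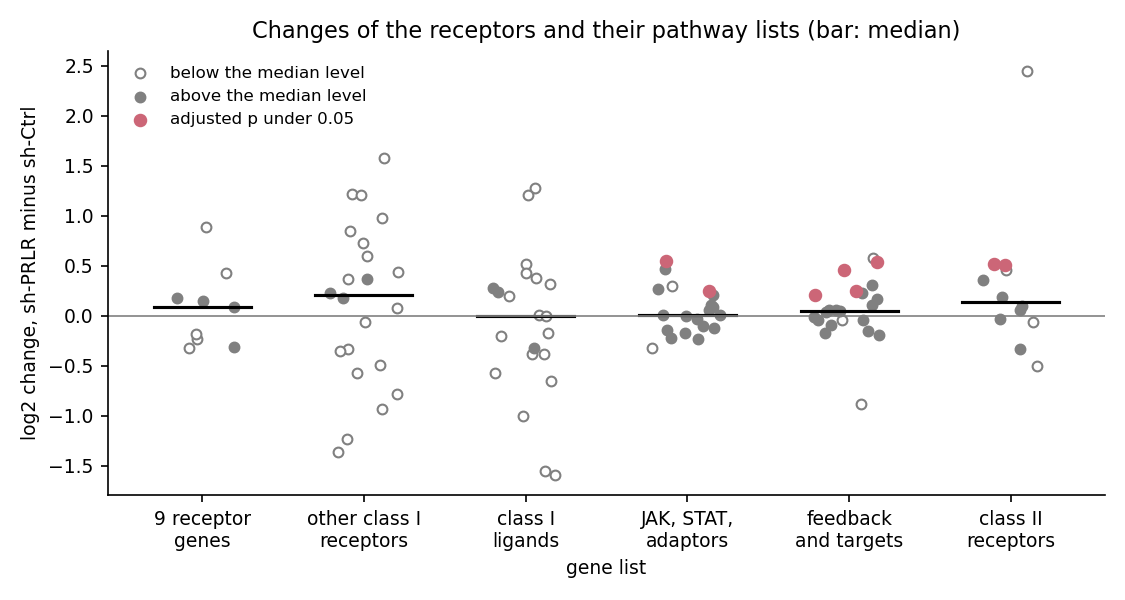
Log2 change (sh-PRLR minus sh-Ctrl, y axis) of each gene in 6 lists (x axis), 1 point per gene, open where the mean lies below the median level of all genes, grey where above and red where the limma adjusted p was under 0.05, with a bar at each list's median. Red points are absent from the 9 receptors, the other class I receptors and the ligands, and number 2, 4 and 2 in the other lists.

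Genes whose values ran most like those of PRLR were sought among 9883 genes above the median gene level. Over the 6 arrays, the mean of the PRLR probe sets correlated best with H2BC12L, a histone H2B gene (Pearson r = 0.998), FAM13A (0.997) and PSMD2, a proteasome subunit gene (0.995). H2BC12L read 9.26, 9.15 and 8.97 against 8.36, 8.64 and 8.54, and the changes of the 3 genes were -0.61, -0.36 and -0.23. For IL6ST the closest were INTS6 (0.995), ZNRD2 (0.994) and CKAP5 (0.992), with changes of 0.18, 0.38 and 0.19. These correlations describe 6 points that share arrays and scaling. They run over both groups, so a difference between the groups enters each r, and the genes were picked as the highest of 9883.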

How the data were processed

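Total RNA of 6 samples was labelled with biotin and hybridised to Affymetrix U133 Plus 2.0 arrays, per the labels' protocols and the series' design text. The authors deposited log2 values. Per the submitters' processing notes, MAS5, RMA and affy were involved, but which of them made these values is not stated there. The 2% trimmed linear mean was 500 on all 6 arrays, so values were used as scaled. Of 54675 probe sets, 62 controls were left out.

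The main test was limma (version 3.58.1, R 4.3.3) with lmFit and an eBayes variance that follows the level (trend and robust). Its p-values are two-sided and adjusted after Benjamini-Hochberg across the 41091 probe sets, or the 19775 genes, at a threshold of 0.05. An exact permutation over 10 splits served for values outside that fit. Default eBayes, 2 normalisations, a pseudocount of 32, filters, probe set choices, a replicate block and each array left out were alternatives. The fit was tested on simulated data, with changes placed only in genes above the median gene level. Their fixed size was larger than the change of any receptor probe set above that level. That test therefore says nothing of how well changes of dim receptors, or smaller changes, would be found. Figures used Python 3.11.15 and matplotlib 3.10.9.

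The receptors, lists and test were chosen with earlier results of these data known. The rule names every receptor probe set and, per list, up to 6 genes past the threshold or else the 2 brightest. Some list members are not reported here. Annotated promoters come from RefSeq.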

Additional observations from a re-analysis of the deposited data

How the results depend on the processing

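In none of 14 other settings for genes and 12 for probe sets did a receptor that was tested pass limma. Leaving out the dimmest 40% of genes removed PRLR, GHR, LIFR and OSMR and kept 5 of the 9. Leaving out the dimmest 40% of probe sets kept 18 of the 35. Among those kept were PRLR 227629_at (limma adjusted p = 0.767) and OSMR 226621_at (0.719). This setting says nothing of the genes and probe sets it removed. Over its 12 other settings, PRLR 231981_at had a limma adjusted p from 0.0521 to 0.283. Direction held in 115 of 122 recomputed values of receptor genes and 376 of 403 of probe sets. The rest turned, all in differences that did not pass: with averaged probe sets LIFR gave 0.062 and IL13RA1 -0.14, with quantile normalisation OSMR 205729_at gave -0.062 and LIFR 225575_at -0.059, with median centring these gave -0.020 and -0.0073, and with a pseudocount of 32 LIFR 225575_at gave -0.055 and IL6ST 234967_at 0.054. SOCS7 gave -0.0053 with averaged probe sets. The causes were not tested.

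With 1 array left out, the ranges that crossed 0 were -0.19 to 0.44 for EPOR (396_f_at), -0.48 to 0.036 for LIFR (229185_at), -0.22 to 0.79 for OSMR (226621_at), -0.040 to 0.35 for IL6ST 204864_s_at, -0.42 to 0.57 for OSMR 205729_at, -0.29 to 0.027 for EPOR 209962_at, -0.65 to 0.46 for PRLR 211917_s_at, -0.16 to 0.039 for IL6ST 212196_at, -1.12 to 0.83 for LIFR 225575_at, -0.28 to 1.85 for IL6ST 234474_x_at, -0.76 to 0.79 for IL6ST 234967_at and -0.99 to 0.16 for PRLR 243755_at. With a pseudocount of 32, PRLR 231981_at gave -0.76 and 216638_s_at -0.56.

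Other class I receptors past the threshold numbered 0, but 1 after quantile normalisation and 1 without the dimmest 40% of genes (0 to 1 with an array left out). Ligands went from 0 to 1 without the dimmest 40% (0 to 1). The count of 2 JAK, STAT and adaptor genes became 0 with default eBayes and 1 with median centring or averaged probe sets (1 to 2). It was also 1 without _x_at and _s_at sets, but SHC1, read by an _s_at set, was not tested there. The 4 feedback and target genes became 0 with default eBayes, 1 with median centring and 2 with averaged probe sets (1 to 4). The 2 class II receptors became 0, 1 and 1 in these settings (1 to 3). Without the dimmest 40% of genes, the counts of these lists rose to 3 (JAK, STAT and adaptor), 5 (feedback and target) and 3 (class II). Class II receptors also numbered 3 with quantile normalisation. Over all genes 1514 passed, 4 with default eBayes, 506 with median centring, 609 with averaged probe sets and 665 to 1322 with an array left out. Without _x_at and _s_at sets 1011 passed of a smaller 17098. Without the dimmest 40% of genes 2026 passed of 11865 (17.1%), and with quantile normalisation 1545 of all genes did (7.81%).

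The replicate numbers did not pair the arrays (correlation of same-numbered deviations -0.056, 0.059 and -0.10). With the replicate block 1090 genes and 2 feedback and target genes passed. The PRLR mean difference of -0.85 cannot move under a block in this balanced design.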
